A study of Mus musculus with 8 samples.

Results

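The immunoproteasome and peptide loading genes are described here in bone marrow-derived macrophages (BMDMs) that lack the DNA exonuclease Trex1 and that were treated with an antagonist of STING, the adaptor of the cytosolic DNA sensor cGAS. The group holds 10 genes of the 54532 in the count files, chosen by name: the immunosubunits Psmb8, Psmb9 and Psmb10, the PA28 activator subunits Psme1 and Psme2, the peptide transporter genes Tap1 and Tap2, tapasin (Tapbp), the aminopeptidase Erap1 and the transactivator Nlrc5. All 10 were abundant enough to be tested. Polyadenylated RNA was sequenced from 8 libraries in 4 groups of 2: wild-type (WT) BMDMs, BMDMs of Trex1-knockout mice (Trex1-KO), and Trex1-KO BMDMs treated with H151 or with SN-011. Marrow came from mice of 6 to 8 weeks on a C57BL/6J background and was cultured for 7 days in medium with L929 cell supernatant, so that all groups share the culture. Cells were then incubated for 12 h with vehicle (WT and Trex1-KO) or antagonist. The labels give 500 nM for H151, and the study's methods give the same concentration for SN-011. Per the study's methods the Trex1-KO mice were bred from heterozygous parents while the WT mice were purchased, so the WT animals were not littermates.

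Cells cut their own cytosolic proteins into peptides with the proteasome, a barrel-shaped 20S core whose cutting sites lie in the subunits Psmb5, Psmb6 and Psmb7. In immune cells and under interferon, Psmb8, Psmb9 and Psmb10 are built into new cores in place of these and form the immunoproteasome, and PA28 (Psme1 with Psme2) caps it. The transporter TAP carries the peptides into the endoplasmic reticulum, where Erap1 trims them and tapasin helps to load them onto MHC class I molecules, while Nlrc5 drives transcription of many genes of this route. In macrophages the route displays intracellular antigens to CD8+ T cells.

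The genes lie in few places of the genome (GRCm38). Psmb9 (chromosome 17, 34181987 to 34187764, minus strand), Tap1 (34187553 to 34197225, plus), Psmb8 (34197721 to 34201454, plus) and Tap2 (34203527 to 34216321, plus) follow each other within the class II region of the H2 complex, and Tapbp lies 253 kb from Psmb9 at 33915899 to 33929292 (plus). Psme1 and Psme2 are 5.91 kb apart on chromosome 14 (55578123 to 55581529, plus, and 55587441 to 55591113, minus). Psmb10 (105935735 to 105938444, minus) and Nlrc5 (94434356 to 94527272, plus) are on chromosome 8, and Erap1 is on chromosome 13 (74639568 to 74693201, plus). Psmb9 and Tap1 face away from each other, and their RefSeq start sites are only 225 bases apart. In GENCODE their exons share 212 bases on opposite strands (5.79% of the exon bases of Psmb9 and 3.87% of those of Tap1), and antisense genes cover 14.73% of those of Psmb8 and 18.46% of those of Tap2. As the strand setting of the counting is not stated, reads in these stretches are uncertain. Stretches of 30 bases of this shared promoter and of the Psmb8 promoter are shown, since these genes lie side by side and were measured together. They are taken from RefSeq promoter windows on GRCm38, are written 5′ to 3′ on the named strand, and carry the motif found in capitals: a CCAAT box, a GC box (CCGCCC, the reverse complement of GGGCGG) and, for Psmb8, a GAS-type motif of the letters TTCNNNGAA.
Tap1 and Psmb9, CCAAT box, chr17:34187321-34187350, plus strand: ggggctcggctttCCAATcagcggctgcgc
Tap1 and Psmb9, GC box, chr17:34187368-34187397, plus strand: cagactgaggccCCGCCCcatcatcgcgca
Psmb8, GAS-type motif, chr17:34198087-34198116, plus strand: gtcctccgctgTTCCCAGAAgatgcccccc
The 250 bases before the start were searched on both strands in the 8 genes that had a RefSeq window (9 windows, since Psme2 has a pair of them). Tap2 and Nlrc5 had no window. For several genes, Psmb8 and Tapbp among them, the window lies inside the GENCODE span given above, so bases before that span were not searched. The motif TTCNNNGAA was present in Psmb8 alone, against 7.02% of all 32851 promoter windows. GGGCGG was found in 5 of the 8 genes (32.7% of all windows) and CCAAT in 3 (33.8%), Tap1 and Psmb9 holding both through the same stretch. The core of the interferon-stimulated response element (GAAA and GAAA with 2 bases between them) and the consensus kappaB site were in none of the 8, against 2.98% and 0.14% of all windows. A match of this kind is a description of the letters in a short window.

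Each library held between 11845470 and 17284863 counts. Levels are given as CPM, counts scaled to a library size that is common to all libraries after correction for composition by TMM, and a gene is said to be called where the quasi-likelihood test of edgeR over 14591 genes gave a false discovery rate (FDR) below 0.05. The targeted gene could not check the labels: all 1147 exon bases of Trex1 lie in exons of Atrip, and its count was 0 in all 8 libraries. All 6 macrophage markers examined were expressed, with a summed level of 8770 to 9740 CPM in WT and Trex1-KO, and 3 of the 6 were called higher in Trex1-KO (log2 fold changes 1.14 for Fcgr1, 0.44 for Cd68 and 0.19 for Adgre1). Marker transcripts of other cell types differed between the genotypes. Summed over 7 stromal markers the level was 2100 to 2300 CPM in WT against 863 to 1060 in Trex1-KO (5 of the 7 called lower, and Dcn at 0.46 on the log2 scale, not called), and summed over 8 granulocyte and progenitor markers it was 6.70 to 6.91 against 31.5 to 48.8 CPM (3 of 8 called higher). The 11 lymphocyte and NK markers summed to 34.2 to 34.6 against 21.4 to 22.4 CPM, of which Cd4 made up most, with 6 or 7 of the 11 at 0 in each of these libraries, and the 7 dendritic cell markers summed to 1.90 to 2.80 against 3.89 to 3.92 CPM, of which 3 could be tested: Xcr1 and Clec9a were called higher, and Zbtb46 stood at -1.32 on the log2 scale (not called, edgeR adjusted p = 0.0951). The part of these shifts in the differences between Trex1-KO and WT was not tested. Between the antagonist groups and Trex1-KO, no stromal, granulocyte, lymphocyte or dendritic marker was called. The macrophage marker Fcgr1, an Fc receptor that is also induced by interferon, was called lower (-0.50 with H151 and -0.49 with SN-011 on the log2 scale). On the same scale and in the same order, Clec9a stood at -1.04 and -1.65, Xcr1 at 0.22 and -0.46 and Zbtb46 at 0.58 and 1.51. In bulk RNA, a change in the share of cells that express a gene and a change in RNA per cell cannot be told apart.

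What loss of Trex1 does to the route was asked first, by comparing Trex1-KO with WT. Of the 10 genes, 9 were called higher in Trex1-KO and none lower, where 16.4% of all tested genes were called, 9.27% higher and 7.11% lower. The median log2 fold change of the 10 genes was 0.51, beside -0.002 over all tested genes. In all 10 genes both Trex1-KO libraries were above both WT libraries, which holds for 28.6% of all tested genes. The rise was largest in Nlrc5 and Tap1, which more than doubled, and smallest in Psmb10 and Psme2. The study placed 6 of the genes (Psmb8, Psmb9, Psme1, Tap1, Tap2 and Nlrc5) in M7core, its signature of 159 genes. M7core comes from a module that the study picked because of how it behaved in this knockout, so for these 6 the direction is not independent evidence. The other 4 were also chosen with earlier results of these data known.

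**Figure D1:**
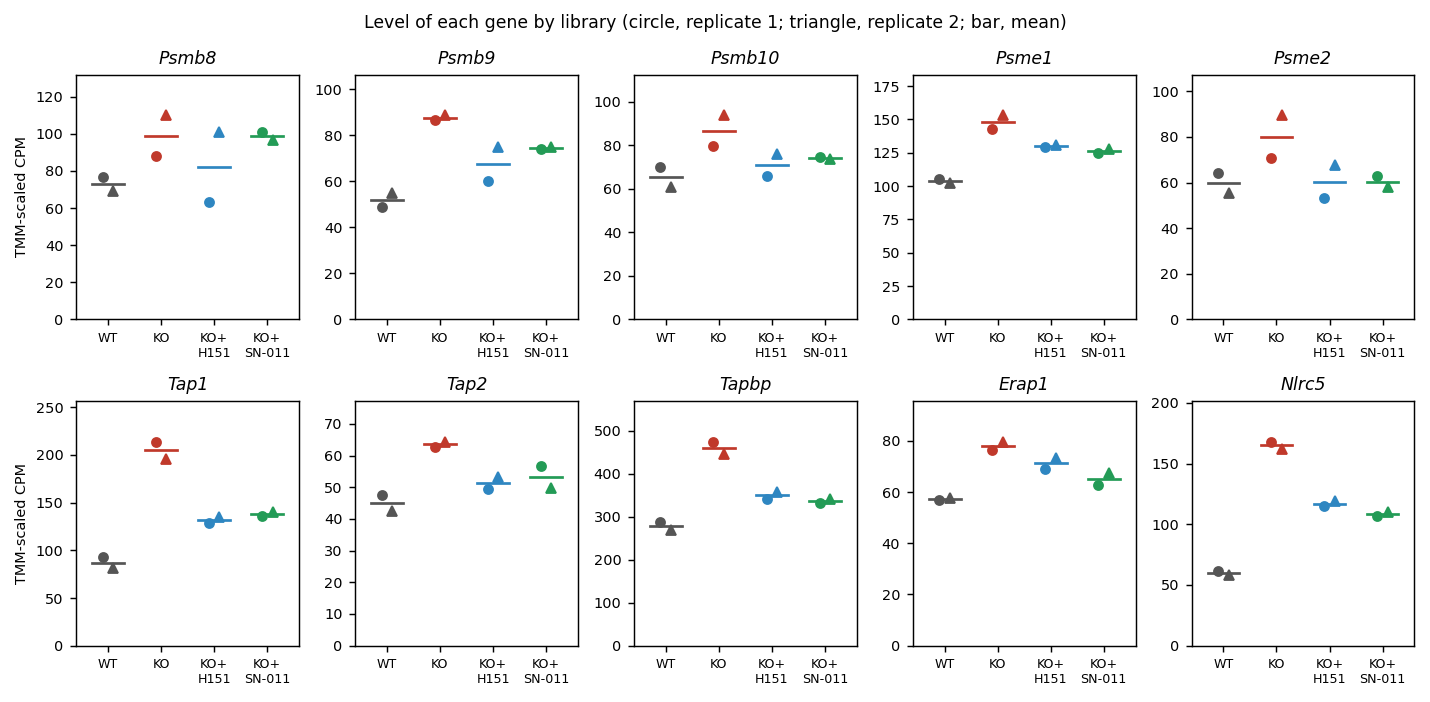
Level of each of the 10 genes in the 8 libraries, in TMM-scaled CPM on axes that start at 0. Circles are replicate 1, triangles replicate 2 and horizontal bars the mean of the 2 libraries. In every panel both Trex1-KO libraries lie above both WT libraries, and the antagonist libraries of Tap1, Tapbp and Nlrc5 lie between these groups.

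Nlrc5, the transactivator of class I genes, was at 61.3 and 58.4 CPM in the WT libraries, 168 and 162 in Trex1-KO, 115 and 119 with H151 and 107 and 110 with SN-011. The groups did not overlap anywhere, with WT lowest and untreated Trex1-KO highest. The log2 fold change of Trex1-KO against WT was 1.46 ± 0.063 (SE, n = 2 and 2), a 2.75-fold higher level (edgeR adjusted p = 3.75e-09).

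Tap1, which forms one side of the peptide transporter, had 92.5 and 81.7 CPM in WT, 214 and 196 in Trex1-KO, 129 and 135 with H151 and 136 and 140 with SN-011. Again untreated Trex1-KO stood above all other libraries, and both antagonists left the gene between WT and Trex1-KO. The level was 2.35-fold higher in Trex1-KO than in WT (log2 fold change 1.23 ± 0.073, edgeR adjusted p = 5.72e-08). Its partner Tap2 rose less, from 47.5 and 42.6 CPM in WT to 62.8 and 64.4 in Trex1-KO (0.50 ± 0.087 on the log2 scale, edgeR adjusted p = 0.00117). With antagonist, Tap2 was at 49.5 and 53.3 CPM (H151) and 56.8 and 49.9 CPM (SN-011), below both untreated Trex1-KO libraries and above both WT libraries.

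Tapbp, the tapasin that bridges TAP and class I molecules, measured 288 and 269 CPM in WT, 475 and 447 in Trex1-KO, 342 and 358 with H151 and 333 and 342 with SN-011. WT was lowest, Trex1-KO highest, and the antagonist groups overlapped each other between them. Against WT the log2 fold change in Trex1-KO was 0.73 ± 0.059 (edgeR adjusted p = 1.25e-06). Exons of Zbtb22 and Gm19412 cover 29.02% of the exon bases of Tapbp, a larger share than for any other gene of the group, and how such reads were counted is not stated.

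Erap1, the trimming peptidase of the endoplasmic reticulum, was at 57.0 and 57.7 CPM in WT, 76.3 and 79.7 in Trex1-KO, 69.2 and 73.2 with H151 and 62.7 and 67.3 with SN-011. All 4 antagonist libraries were above WT and below untreated Trex1-KO. Its log2 fold change against WT was 0.44 ± 0.071 in Trex1-KO (edgeR adjusted p = 0.000561). Exons of Cast on the opposite strand cover 11.46% of its exon bases, where reads are likewise uncertain.

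Among the immunosubunits, Psmb9 showed the largest rise. Its level was 48.6 and 54.7 CPM in WT, 86.7 and 88.6 in Trex1-KO, 60.2 and 74.8 with H151 and 74.1 and 74.7 with SN-011, a log2 fold change of Trex1-KO against WT of 0.76 ± 0.095 (edgeR adjusted p = 6.52e-05). The genotypes were far apart beside the spread of their libraries, whereas the H151 libraries were not close to each other. Psmb10 was at 69.9 and 60.9 CPM in WT and at 79.8 and 93.8 in Trex1-KO, 0.41 ± 0.096 on the log2 scale (edgeR adjusted p = 0.00839). The H151 libraries had 65.9 and 76.0 CPM and the SN-011 libraries 74.8 and 73.5, below both Trex1-KO libraries, and the H151 libraries overlapped WT.

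Psmb8 was the exception. It measured 76.7 and 69.4 CPM in WT, 88.2 and 110 in Trex1-KO, 63.2 and 101 with H151 and 101 and 96.6 with SN-011. The first H151 library was below every other library and the second was close to the SN-011 libraries, so that H151 overlapped both WT and Trex1-KO, and SN-011 lay within the Trex1-KO range. Although both Trex1-KO libraries were above WT, the log2 fold change of 0.44 ± 0.16 (95% interval 0.10 to 0.78) was not called (edgeR adjusted p = 0.0832). The standard error was larger than for any other gene of the group. The gene was called by 5 of 10 alternative analyses of this comparison, over which its edgeR or DESeq2 adjusted p ran from 3.45e-06 to 0.379.

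The PA28 subunits, which form one ring together, rose by similar amounts. Psme1 was at 105 and 102 CPM in WT, 143 and 153 in Trex1-KO, 129 and 131 with H151 and 125 and 128 with SN-011, and its log2 fold change of Trex1-KO against WT was 0.52 ± 0.061 (edgeR adjusted p = 4.15e-05). Psme2 was at 64.3 and 55.3 CPM in WT, 70.6 and 89.5 in Trex1-KO, 53.4 and 67.5 with H151 and 62.9 and 58.0 with SN-011, and its change was 0.42 ± 0.12 (edgeR adjusted p = 0.0312). For Psme1 the antagonist libraries lay between the genotypes, while for Psme2 both antagonist groups overlapped WT. Reads of Psme2 are uncertain, as 794 bases of its 962-base transcript match Psme2b at 99.4% identity. Some of these calls changed when a single library was left out, a fit that also holds less information on the spread. Psmb10 lost its call without WT replicate 2 (adjusted p = 0.138) and without Trex1-KO replicate 2 (0.0936), and Psme2 lost its call in edgeR without WT replicate 1 (0.0534), WT replicate 2 (0.279) or Trex1-KO replicate 2 (0.265) and with total counts in place of TMM (0.0699), while Psmb8 gained one without Trex1-KO replicate 1 (0.0401).

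**Figure D2:**
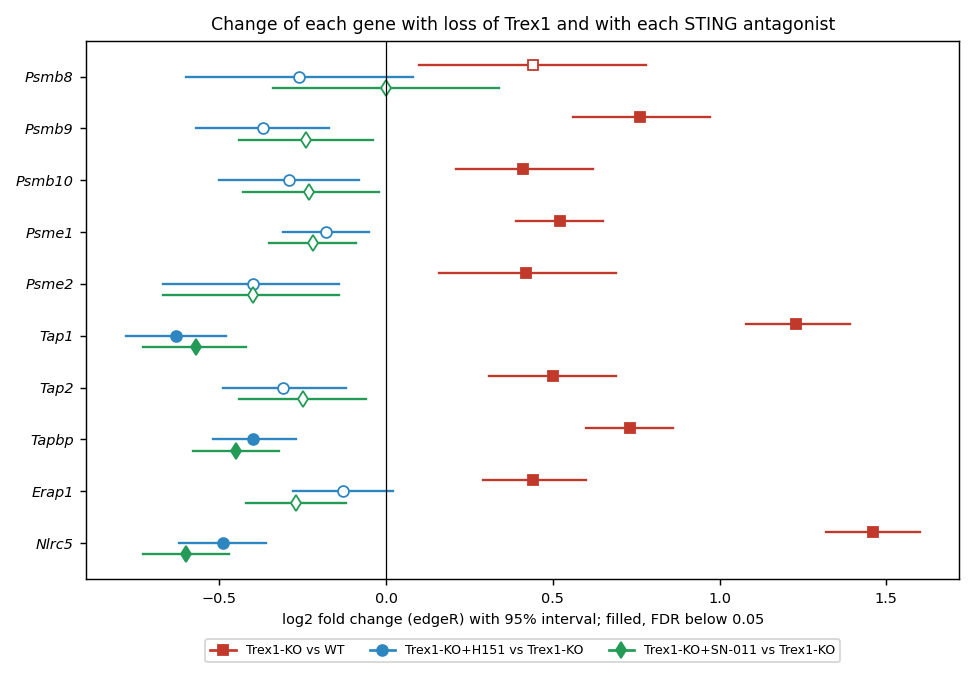
Log2 fold change of each of the 10 genes with its 95% interval, for Trex1-KO against WT (squares), H151 against Trex1-KO (circles) and SN-011 against Trex1-KO (diamonds). Filled symbols passed an FDR of 0.05; only Tap1, Tapbp and Nlrc5 are filled in all 3 comparisons, and both antagonist comparisons share the same Trex1-KO libraries.

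The antagonist groups were next compared with untreated Trex1-KO. No WT cells were given an antagonist and no group lacked STING. Whether the higher levels depend on STING was therefore not tested, and an action of the compounds on other targets cannot be told apart. With H151, 3 of the 10 genes were called lower than in untreated Trex1-KO and none higher, where 2.23% of all tested genes were called and 1.84% called lower. The same counts were obtained with SN-011, where 2.33% of all tested genes were called and 2.22% called lower. Tap1, Tapbp and Nlrc5 were the called genes in both comparisons, which share the Trex1-KO libraries. The median log2 fold change of the 10 genes was -0.34 with H151 and -0.26 with SN-011, beside 0.0012 and 0.0088 over all tested genes. In 9 of the 10 genes, Psmb8 being the exception, both antagonist libraries were below both Trex1-KO libraries, with H151 as with SN-011. Over all tested genes this held for 17.9% and 21.6%.

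In Nlrc5 the log2 fold change was -0.49 ± 0.061 for H151 (edgeR adjusted p = 0.000305) and -0.60 ± 0.061 for SN-011 (6.77e-05). Tap1 changed by -0.63 ± 0.071 and -0.57 ± 0.071 in the same order (adjusted p = 0.000145 and 0.00038 in edgeR). For Tapbp the changes were -0.40 ± 0.059 and -0.45 ± 0.059 (adjusted p = 0.00158 and 0.000582 in edgeR). These calls were kept in all 10 alternative analyses of each comparison. The other 7 genes had log2 fold changes between -0.40 and -0.13 with H151 and between -0.40 and 0.00 with SN-011, none of them called. Among these, Psmb9 came closest to the threshold with H151 (-0.37 ± 0.093, edgeR adjusted p = 0.0606) and was called by 5 of 10 alternatives, and Erap1 came closest with SN-011 (-0.27 ± 0.070, adjusted p = 0.0768) and was called by 2, while Psme2 (-0.40, adjusted p = 0.148) was called by 3. The H151 count depended on replicate 2 of that group. Without this library the log2 fold changes of Psmb8, Psmb9 and Psme2 were -0.65, -0.54 and -0.59, larger falls than with all libraries. With genes down to 1 count kept in the test the count was 7 of 10. In that setting 525 of 27065 tested genes were called, 394 of them lower.

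Between the antagonists, no gene of the group was called at the matched time and concentration, and 0.158% of all tested genes were. Log2 differences of SN-011 from H151 ran from -0.14 (Erap1, 95% interval -0.29 to 0.02) to 0.26 (Psmb8, -0.08 to 0.60), and none of the 10 genes reached an unadjusted p under 0.05 in edgeR. For Tap1 the interval of the difference was -0.10 to 0.21, for Tapbp -0.18 to 0.08 and for Nlrc5 -0.24 to 0.02. DESeq2 called none as well. Without H151 replicate 2, Psmb8 was called higher with SN-011 (log2 difference 0.65, edgeR adjusted p = 0.00839), and without H151 replicate 1 its difference was -0.03. The intervals for the genes do not show that the antagonists act alike. The libraries of SN-011 were submitted later than the others. Any effect of this on the comparisons of SN-011 with H151, Trex1-KO or WT cannot be told apart from that of the antagonist.

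The levels with antagonist were then set against WT to see how much of the rise remained. With H151, 6 of the 10 genes were still called higher than in WT (Psmb9, Psme1, Tap1, Tapbp, Erap1 and Nlrc5), where 11.8% of all tested genes were called, 6.79% higher and 5.04% lower. For SN-011 the number was 5 (the same without Erap1), where 11.7% were called, 6.18% higher and 5.57% lower. Nlrc5 remained 1.96-fold higher with H151 (log2 fold change 0.97 ± 0.064, edgeR adjusted p = 4.66e-07) and 1.81-fold higher with SN-011 (0.86 ± 0.064, 1.37e-06). Tap1 was 1.52-fold higher with H151 (0.60 ± 0.074, edgeR adjusted p = 9.78e-05) and 1.58-fold higher with SN-011 (0.66 ± 0.073, 4.68e-05). Tapbp was 1.26-fold and 1.21-fold higher, in that order, and Psme1 1.26-fold and 1.23-fold higher. Psme2, in contrast, differed from WT by 0.02 ± 0.13 on the log2 scale with either antagonist (95% interval -0.25 to 0.29). Without WT replicate 2 or SN-011 replicate 2 the count with SN-011 was 3.

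Because each immunosubunit takes the place of a constitutive subunit in the core, their levels were also compared within libraries, as the ratio of counts per kilobase of the principal transcript. The constitutive subunits themselves were not called in any comparison. Psmb5 (the chymotrypsin-like site) was at 47.0 and 42.4 CPM in WT and 33.7 and 44.6 in Trex1-KO, Psmb6 (the caspase-like site) at 78.7 and 81.4 and at 76.3 and 97.1, and Psmb7 (the trypsin-like site) at 54.0 and 47.6 and at 36.6 and 50.9. The genotypes overlapped in all 3, with the Trex1-KO libraries on opposite sides of at least 1 WT library. With H151 they were at 30.7 and 44.4, 74.8 and 95.5, and 36.5 and 48.3 CPM in the same order, and under SN-011 at 50.0 and 45.4, 102 and 89.2, and 51.3 and 51.7. The SN-011 libraries of Psmb5 and Psmb7 were thus above both untreated Trex1-KO libraries (log2 fold changes 0.28 ± 0.15 and 0.23 ± 0.14, not called).

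Psmb8 to Psmb5 gave a ratio of 0.900 and 0.903 in WT, 1.45 and 1.36 in Trex1-KO, 1.14 and 1.26 with H151 and 1.12 and 1.18 with SN-011. Both Trex1-KO libraries were above all others and both WT libraries below all others, unlike the level of Psmb8 alone. Psmb9 to Psmb6 gave 0.364 and 0.397 in WT, 0.671 and 0.539 in Trex1-KO, 0.475 and 0.462 with H151 and 0.429 and 0.494 with SN-011, and Psmb10 to Psmb7 gave 1.15 and 1.13, 1.93 and 1.63, 1.60 and 1.39, and 1.29 and 1.26 in the same order. The order of WT, antagonist and Trex1-KO was the same in the 3 pairs, without overlap. The pairs were read in the same libraries, and how often other gene pairs show this order was not examined. In Trex1-KO, the ratios were 1.55, 1.58 and 1.56-fold those of WT for the Psmb8, Psmb9 and Psmb10 pairs. Both terms of the Psmb8 and Psmb10 pairs entered these values, with log2 fold changes of 0.44 (Psmb8) and 0.41 (Psmb10) beside -0.19 (Psmb5) and -0.21 (Psmb7), whereas in the Psmb9 pair Psmb6 was at 0.12. With H151 they were 0.854, 0.779 and 0.841-fold those of untreated Trex1-KO, and with SN-011 0.819, 0.766 and 0.718-fold. The lower ratio of Psmb8 to Psmb5 with SN-011 went with a higher Psmb5, since Psmb8 itself had a log2 fold change of 0.00. In the other pairs both terms moved with SN-011 (-0.24 for Psmb9 and 0.14 for Psmb6, -0.23 for Psmb10 and 0.23 for Psmb7). A two-sided exact permutation test of 2 libraries against 2 cannot go below p = 0.333, which was the value in each of these 9 comparisons, so they cannot pass a threshold of 0.05. The differences between groups do not depend on the transcript length chosen, but the level of a ratio does, so that a ratio above or below 1 says little on which subunit is the more abundant. A transcript of Gm3375 matches 88.5% of the Psmb5 transcript at 98.9% identity, so reads of Psmb5 are uncertain.

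**Figure D3:**
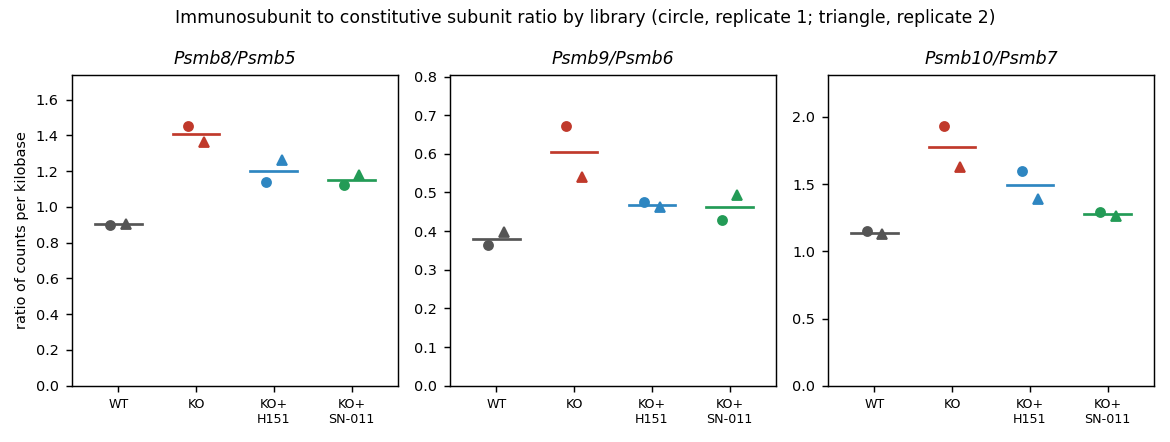
Ratio of each immunosubunit to the constitutive subunit it replaces, as counts per kilobase of principal transcript within a library, on axes that start at 0. Circles are replicate 1, triangles replicate 2 and bars the mean; in each panel WT is lowest, untreated Trex1-KO highest and both antagonist groups lie between.

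Per kilobase of principal transcript, the levels of the 10 genes could be set beside each other. Tapbp was the most abundant in WT at 96.1 ± 4.5 CPM per kilobase (SD, n = 2), followed by Psme1 at 92.7 ± 1.8 and Psme2 at 62.2 ± 6.6. The libraries of Tapbp (92.9 to 99.3) and Psme1 (91.4 to 94.0) overlapped, as did those of the next genes in order, Psmb10 (49.9 ± 4.8) and Psmb8 (44.9 ± 3.2). Psmb9 stood at 38.2 ± 3.2, Tap1 at 29.5 ± 2.6 and Tap2 at 13.1 ± 1.0, and Erap1 (10.2 ± 0.079) and Nlrc5 (7.90 ± 0.27) were lowest. In Trex1-KO Tapbp reached 159 ± 6.8, Tap1 69.4 ± 4.2 and Tap2 18.5 ± 0.34, and Nlrc5 passed Tap2 and Erap1 at 21.7 ± 0.56. Parts of this order depend on the length used. With all annotated exon bases as the length, an alternative chosen after seeing the data, Psmb10 stood above Psme2 and Tap1 above Psmb9 in WT, and Tap1 and Tap2 were closer to each other (15.9 and 11.9 CPM per kilobase in WT, 37.4 and 16.8 in Trex1-KO), while Tapbp and Psme1 stayed highest and Nlrc5 again passed Tap2 and Erap1.

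The rest of the proteasome was read from lists of its other subunits. None of the 11 other 20S core subunits, the 21 subunits of the 19S particle (which recognises and unfolds ubiquitin-tagged proteins) or the 8 other activators and assembly factors was called in any of the 6 comparisons by edgeR. Their log2 fold changes in Trex1-KO against WT ran from -0.15 to 0.12 for the core, from -0.20 to 0.22 for the 19S particle and from -0.36 to 0.12 for activators and assembly factors, with medians of 0.01, 0.02 and 0.00. At an unadjusted p under 0.05 the counts for Trex1-KO against WT were 0 of 11, 2 of 21 and 0 of 8. DESeq2 called none in that comparison, whereas total counts in place of TMM added the core subunit Psmb4 (-0.23, edgeR adjusted p = 0.0381), and without Trex1-KO replicate 2 the constitutive subunit Psmb7 was called lower (-0.47, edgeR adjusted p = 0.0434).

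Among 13 other genes of peptide trimming and loading, 3 were called higher and 1 lower in Trex1-KO than in WT. At an unadjusted p under 0.05 in edgeR the count was 8. It took in Thop1 (-0.41), Sec61b (-0.40), Sec61g (-0.36) and Pdia3 (0.17), each of which was called in some alternatives. Tapbpl, a tapasin relative that edits class I peptides, rose from 20.1 and 17.1 CPM in WT to 31.2 and 30.5 (log2 fold change 0.73 ± 0.11, edgeR adjusted p = 0.000338), the same size as Tapbp. Lnpep, an endosomal aminopeptidase, rose by 0.37 ± 0.057 (adjusted p = 0.000419), and the chaperone calreticulin (Calr) by 0.28 ± 0.057 (adjusted p = 0.00292). Lap3, a cytosolic leucine aminopeptidase, fell by 0.29 ± 0.083 (adjusted p = 0.0277), a call that was lost in DESeq2 and with any 1 of the 4 libraries left out, and that of Calr was lost without WT replicate 2. None of the 13 was called by the main edgeR fit or by DESeq2 with either antagonist against Trex1-KO. In the main fit, 2 with H151 and 3 with SN-011 had an unadjusted p under 0.05. Tapbpl (-0.41 with SN-011) was called by 3 of the alternative edgeR fits. In Trex1-KO against WT, 9.27% of all tested genes were called higher and 7.11% lower. Over these 13 genes and the proteasome genes above, 56 in all, 3 were called higher and 1 lower. With total counts in place of TMM the split was 3 higher and 5 lower. The same change of scaling moved the share of higher calls over all genes from 56.6% to 37.2%. All 10 genes of the group kept positive log2 fold changes in Trex1-KO against WT under that scaling.

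**Figure D4:**
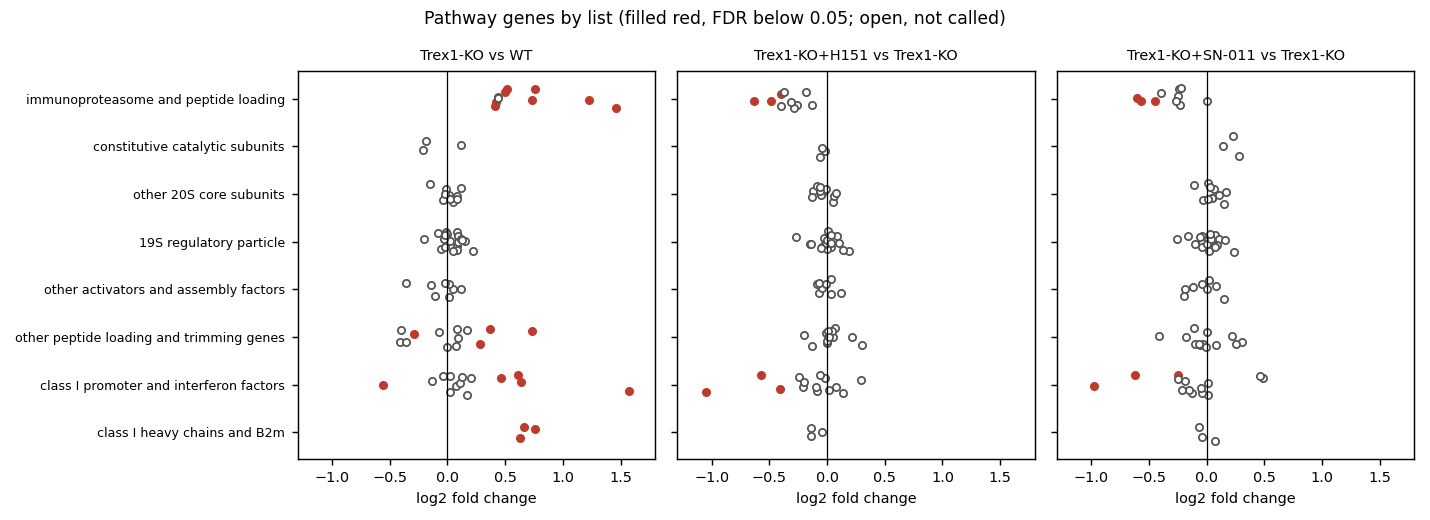
Log2 fold change of each gene, by list, for Trex1-KO against WT, H151 against Trex1-KO and SN-011 against Trex1-KO. Filled red points passed an FDR of 0.05 and open points did not; vertical jitter within a row carries no value. Called genes lie in the top row and in the bottom 3 rows, and no class I heavy chain or B2m point is filled in the antagonist panels.

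The factors known to act on these promoters were read beside them. Irf1, an interferon-induced activator of Psmb9 and Tap1, was 1.56-fold higher in Trex1-KO (0.64 ± 0.085, edgeR adjusted p = 0.000122). It fell by 0.57 ± 0.085 with H151 and by 0.62 ± 0.085 with SN-011, to 84.6 and 91.1 CPM and to 87.5 and 82.5 CPM, where WT had 90.8 and 76.7. Irf2, the related factor that binds the same sites, rose by 0.46 ± 0.060 (adjusted p = 0.000109) and was called lower with SN-011 (-0.25 ± 0.060, edgeR adjusted p = 0.0475), with a change of similar size under H151 that was not called (-0.21 ± 0.060, edgeR adjusted p = 0.13). Rfx5, a DNA-binding partner of Nlrc5, was not called in any comparison (0.02 ± 0.12 in Trex1-KO against WT, 95% interval -0.24 to 0.28). Of the 14 such factors examined, 4 were called higher, 1 lower and 9 not called in Trex1-KO against WT. Over all tested genes, 9.27% were called higher and 7.11% lower in that comparison. With each antagonist 3 of the factors were called lower, where 1.84% (H151) and 2.22% (SN-011) of all tested genes were. Stat2 (1.57) and Irf9 (0.61), which carry interferon signals to the nucleus, were among those that rose, and Rfxap, another Rfx complex subunit, was the one that fell (-0.56 ± 0.13, adjusted p = 0.00633). Under H151 Stat2 fell by 1.05 ± 0.065 (edgeR adjusted p = 6.33e-06), and under SN-011 it fell by 0.98 ± 0.065 (adjusted p = 1.04e-05).

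The molecules that the route loads rose as well. The heavy chains H2-K1 and H2-D1 and the light chain B2m were all called higher in Trex1-KO (log2 fold changes 0.76 ± 0.071, 0.63 ± 0.051 and 0.66 ± 0.046). With the antagonists none of the 3 was called by edgeR against Trex1-KO (1 with H151 and 0 with SN-011 had an unadjusted p under 0.05). The log2 fold changes were -0.14, -0.04 and -0.14 with H151 and -0.04, 0.07 and -0.07 with SN-011, with 95% intervals no lower than -0.29, while Nlrc5, Tap1 and Tapbp were called lower in the same libraries. Whether the loading genes and the heavy chains differ in their response to the antagonists was not tested. H2-D1 shares 280 bases at 96.4% identity with H2-Q7, so its reads are uncertain.

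Finally, tested genes outside the group were ranked by how closely their profile over the 8 libraries (centred log2 CPM) followed the mean profile of the 10 genes, in which the libraries stood at -0.30 and -0.39 in WT, 0.30 and 0.38 in Trex1-KO, -0.11 and 0.09 with H151 and 0.03 and 0.01 with SN-011. The closest 5 were Trafd1, Nmi, Tor1aip1, Cd52 and Irf9, with root mean square distances of 0.0494, 0.0584, 0.0609, 0.0622 and 0.0652. Trafd1, a zinc finger protein that dampens innate signalling, was at 246 CPM on average in WT, 400 in Trex1-KO, 302 with H151 and 301 with SN-011. Within the group, the gene closest to the mean profile was Tapbp (0.0722) and the farthest was Nlrc5 (0.294), which ran from -0.86 to 0.66 and in which the SN-011 libraries (0.02 and 0.06) were below those with H151 (0.12 and 0.17).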

How the data were processed

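The authors trimmed read pairs with Trimmomatic, aligned them with hisat2 and counted unique pairs per gene with featureCounts, whereas the submitters' processing notes name HISAT2, HTSeq and mm10. Versions and the strand setting of the counting are not given in the sources used here, while the study's methods describe strand-specific library preparation. The deposited values are raw counts per Ensembl gene, 1 file a library, with no normalization. Symbols, positions and lengths came from GENCODE release M21 (GRCm38), which held 54495 of 54532 identifiers. All 8 libraries entered 1 edgeR 4.0.16 quasi-likelihood fit in R 4.3.3 (TMM; filterByExpr with count minimum 10 and total minimum 15), with two-sided tests and Benjamini-Hochberg adjustment over 14591 genes at 0.05. Standard errors were derived from the fold change and F statistic and are approximate. One count was worth 0.0582 to 0.0849 CPM. The study describes the 2 libraries of a group as independent experiments; GEO's labels do not say whether animals were shared, so p-values may measure technical spread. Exon overlaps and near copies were read from GENCODE. The steps were tested on simulated counts, and alternatives are named in the closing section. Named genes were the 10 genes, Psmb5, Psmb6, Psmb7, Irf1, Irf2, Rfx5, H2-K1, H2-D1 and B2m. The up to 3 largest called rises and falls in each pathway list and the closest 5 profiles were named too. Psmb4, Thop1, Sec61b, Sec61g, Pdia3, Cd4, Dcn and the macrophage and dendritic cell markers were named after their values were seen. The 10 genes and all lists were chosen with earlier results of these data known. One further gene that the naming rule covers is not reported here and was left out of its list. No protein sequence was used here.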

Additional observations from a re-analysis of the deposited data

How the results depend on the processing

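Alternatives were total counts in place of TMM, DESeq2 1.42.0, the edgeR exact test, all genes with at least 1 count, only the 2 groups compared, the replicate number as a block, and each library left out in turn, in a fit that assumes the lone sample varies like the other groups. The number of genes of the group called in Trex1-KO against WT ran from 7 to 10. Over all tested genes, 1838 of 14591 were called there with DESeq2 and 2738 of 27065 with genes of at least 1 count. Against Trex1-KO, the H151 count of 3 became 7 with genes of at least 1 count, where 525 of 27065 tested genes were called. It was also higher without H151 replicate 2. The SN-011 count stayed at 3 to 4. SN-011 against H151 gave 0 to 1, H151 against WT 4 to 7 and SN-011 against WT 3 to 5 with a library left out. The 4 other pathway genes called in Trex1-KO against WT became 8 with total counts, 7 with genes of at least 1 count, 8 with the replicate block and 2 to 6 with a library left out (2 without WT replicate 2). For SN-011 against Trex1-KO their count of 0 became 1 (Tapbpl) with the edgeR exact test, with genes of at least 1 count and with only the 2 groups. Signs reversed only in values not called. With total counts, Psme2 was -0.04 in H151 and in SN-011 against WT; with a library left out it ran from -0.17 to 0.16 and from -0.10 to 0.12. Psmb8 ran from -0.65 to 0.03 in H151 against Trex1-KO, from -0.22 to 0.46 in H151 against WT and from -0.03 to 0.65 in SN-011 against H151. In the last comparison Psmb9 ran from -0.01 to 0.30, Psmb10 from -0.03 to 0.17 and Tap2 from -0.05 to 0.15. The 9 subunit ratio differences (Trex1-KO against WT, each antagonist against Trex1-KO) kept their direction; those between the antagonists were not recomputed. Correlations of the deviations of same-numbered libraries across genes were between -0.02 and 0.19, and with 2 pairs the number is not shown to pair the samples. The block called Psmb8 in Trex1-KO against WT (adjusted p = 0.04), Psmb9 with H151 (0.0137) and Erap1 with SN-011 (0.0494) against Trex1-KO, and the cause was not tested for any of these shifts. The lowest count of any gene of the group in any library was 587. A spread over 2 libraries is itself imprecise.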
